A study of Mus musculus with 8 samples.

Results

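The miR-17 to miR-92a cluster is a group of mouse miRNAs cut from 1 primary transcript of chromosome 14. Its 7 members, chosen by name out of 1881 mouse miRNAs on the array, were mmu-miR-17-5p, mmu-miR-17-3p, mmu-miR-18a-5p, mmu-miR-19a-3p, mmu-miR-20a-5p, mmu-miR-19b-3p and mmu-miR-92a-3p, written below without the mouse prefix. All 7 were detected on all 8 arrays. There were 4 kidney samples from db/db mice, labelled as +Leprdb/+Leprdb, and 4 from control mice, labelled as m+/m+. All came from males of the C57BLKS/J Iar background aged 28 weeks, and no treatment is named for either group. The db allele is a mutation of the leptin receptor gene carried in every tissue. Mice with db/db are obese and diabetic, and the kidney was compared in that setting. Array titles call the controls dbm but the source label calls them m/m, and these 2 names leave it unsettled if they were carriers of the db allele. No label states that samples were separate animals, and p-values refer to sample-to-sample spread only. Both groups shared 1 slide, with db/db arrays in row 2 and control arrays in row 1. Genotype and row of the slide cannot be told apart.

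The primary transcript, known as the Mir17hg host gene transcript, folds into a row of hairpins from which the mature miRNAs are cut. The members fall into families by their seed, the stretch near the 5′ end that pairs with target mRNAs, and the cluster is known for promoting cell cycle entry and survival, with Myc and E2F factors among its activators. In mouse kidney it is known to be needed for the growth of nephron progenitors, and it promotes cyst growth in mouse models of polycystic kidney disease. The mature sequences are shown because the seed sets the families by which the values are ordered here, and because single bases separate some members. They are given 5′ to 3′ from RefSeq (GRCm38.p6), where all 7 members were matched, with the seed (bases 2 to 8) in capitals.
miR-17-5p: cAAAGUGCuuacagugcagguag
miR-20a-5p: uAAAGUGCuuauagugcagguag
miR-18a-5p: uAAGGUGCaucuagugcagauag
miR-19a-3p: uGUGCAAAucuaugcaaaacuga
miR-19b-3p: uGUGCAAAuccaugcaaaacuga
miR-92a-3p: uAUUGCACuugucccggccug
miR-17-3p: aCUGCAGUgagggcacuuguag

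The 7 members carry 5 distinct seeds. miR-17-5p and miR-20a-5p share AAAGUGC and differ by the substitutions C1U and C12U, counted from 1 at the 5′ end with the miR-17-5p base first. miR-19a-3p and miR-19b-3p share GUGCAAA and differ by U11C alone. The seed of miR-18a-5p (AAGGUGC) differs from that of miR-17-5p by A4G. Both arms of the miR-17 hairpin are members, which is why that hairpin is shown whole, with the 2 mature arms in capitals.
miR-17 hairpin: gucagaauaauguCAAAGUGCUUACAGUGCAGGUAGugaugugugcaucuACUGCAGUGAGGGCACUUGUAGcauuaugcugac

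In RefSeq the 6 hairpins lie on the plus strand of chromosome 14 within 836 bases, in the order miR-17, miR-18a, miR-19a, miR-20a, miR-19b-1 and miR-92a-1. In the array's own annotation (build mm9) the probes of the 7 members map to chr14:115442916-115443718. miR-19b-3p and miR-92a-3p are also cut from a second copy on chromosome X, and the probes of miR-17-5p map there too because they match miR-106a-5p. The signal of these 3 members therefore cannot be assigned to chromosome 14 alone. The probes are antisense to the 3′ end of each miRNA, 15 spots each, and the letters that separate the miR-19 members are shown with that position in capitals.
miR-19a-3p longer probe: tcagttttgcatAgatttgca
miR-19a-3p shorter probe: tcagttttgcatAgatttgc
miR-19b-3p longer probe: tcagttttgcatGgatttgc
miR-19b-3p shorter probe: tcagttttgcatGgatttg

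Between 289 and 358 miRNAs were detected per db/db array, against 305 to 352 per control array, with 390 detected on at least 1 array. Correlations of log2 values across miRNAs, which are not independent replicates, ran from 0.9895 to 0.9975 within a group and from 0.9636 to 0.9793 between groups. miR-192-5p, taken here as a marker of kidney tubules, averaged 12.17 ± 0.04 log2 scaled signal in db/db and 12.10 ± 0.07 in control kidneys (SD, n = 4 each). This level goes with the kidney label but does not settle it, since no other tissue was compared. All levels below are log2 of the processed spot signal after scaling of each array on its 75th percentile over the 269 miRNAs that every array detected. Levels of different miRNAs are not comparable, because each depends on its own probes.

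The comparison of db/db with control kidneys asked which members differed with the genotype. miR-19a-3p, miR-18a-5p, miR-17-5p, miR-19b-3p and miR-20a-5p fell in db/db kidneys, by 10.3% to 21.7% of scaled signal, and no member rose. miR-17-3p and miR-92a-3p did not pass the test. Thus 5 of 7 members passed in the lower direction, where 17.4% of the 316 tested miRNAs did. Over all tested miRNAs, 24.4% passed in the higher direction and 41.8% in either. In 4 of 7 every db/db array lay below every control array, as in 16.8% of the tested miRNAs, while 41.5% of them did not overlap in either direction. Among these 4, the groups of miR-18a-5p and miR-19b-3p overlapped when the longer probe was read alone. The median change of the 7 members was -0.16, beside -0.02 over all tested miRNAs. Calls are at an adjusted p under 0.05 in limma with Benjamini-Hochberg adjustment over the 316 miRNAs. With spike-in scaling, with no scaling or with the percentile set on all miRNAs, 0 members passed in either direction. In the last of these settings miR-19a-3p still changed by -0.34 and miR-20a-5p by -0.14, each with an SE of 0.25. That SE was the same for miR-16-5p, which is not a member. Under spike-in scaling the changes of miR-20a-5p and miR-19b-3p turned to 0.024 and 0.018, and that of miR-17-3p to 0.023.

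**Figure D1:**
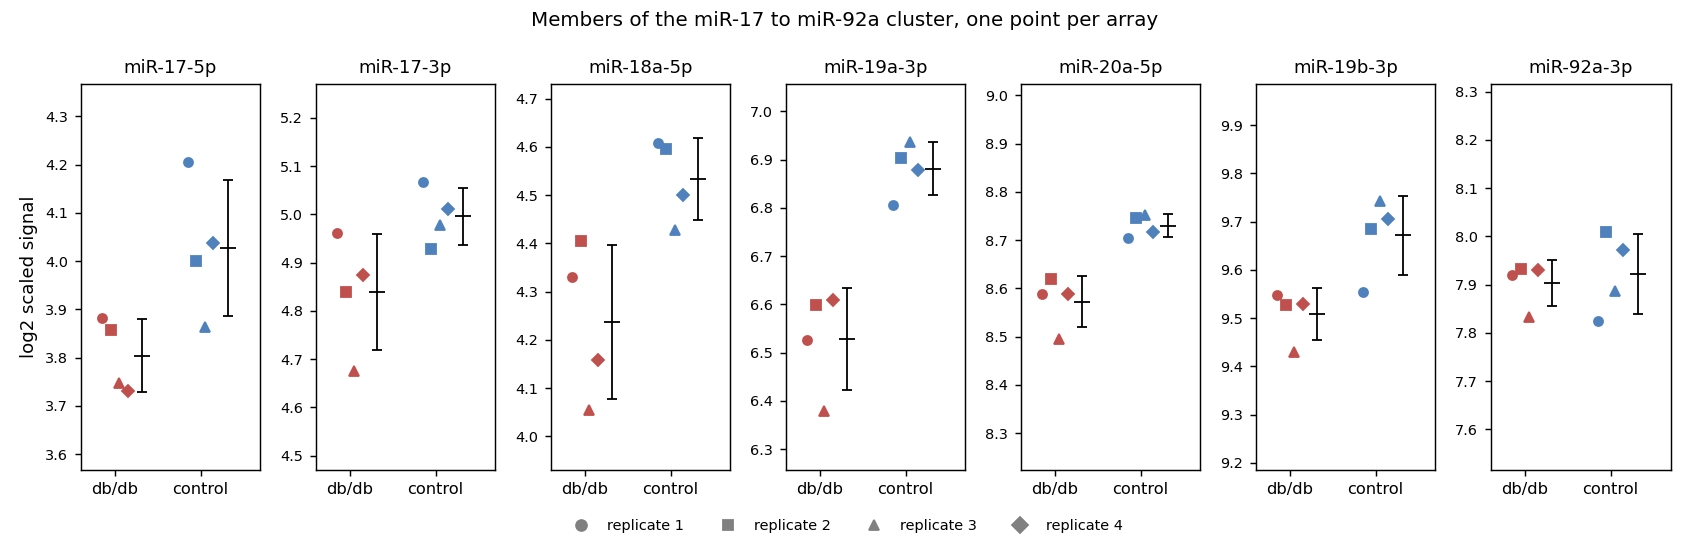
Log2 scaled signal of the 7 members, 1 point per array, in 4 db/db (red, left) and 4 control (blue, right) kidneys, with the replicate number as the marker shape and bars at mean ± SD. Each panel has its own range of equal height. The db/db points lie wholly below the control points for miR-18a-5p, miR-19a-3p, miR-20a-5p and miR-19b-3p and overlap them for miR-17-5p, miR-17-3p and miR-92a-3p. Points are means of 2 probes, and on the longer probe alone the groups of miR-18a-5p and miR-19b-3p overlapped.

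In a mouse lymphoma model the miR-19 family is known to carry most of the oncogenic activity of the cluster. miR-19a-3p read 6.53, 6.60, 6.38 and 6.61 in db/db replicates 1 to 4, against 6.81, 6.90, 6.94 and 6.88 in control replicates 1 to 4. Every db/db array lay below every control array, and the lowest control array stood 0.20 above the highest db/db array. The change was -0.35 ± 0.06 (SE, 95% interval -0.49 to -0.21, limma adjusted p = 0.00252). On the linear scale miR-19a-3p fell by 21.7%. miR-19b-3p read 9.55, 9.53, 9.43 and 9.53 in db/db kidneys, against 9.55, 9.68, 9.74 and 9.71 in control kidneys. Its groups separated only barely, since control replicate 1 stood 0.0050 above db/db replicate 1. The change was -0.16 ± 0.05 (SE, limma adjusted p = 0.0404). Without control replicate 2, 3 or 4, or without db/db replicate 1, 3 or 4, the limma adjusted p of miR-19b-3p ran from 0.0568 to 0.0970.

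The miR-17 and miR-20a family represses the cell cycle inhibitor Cdkn1a as well as E2F1. miR-20a-5p read 8.59, 8.62, 8.50 and 8.59 in db/db kidneys, against 8.70, 8.75, 8.75 and 8.72 in control kidneys. All db/db arrays were lower than all control arrays, and both groups were tight. The change was -0.16 ± 0.04 (SE, limma adjusted p = 0.0151). miR-17-5p read 3.88, 3.86, 3.75 and 3.73 in db/db kidneys, against 4.21, 4.00, 3.86 and 4.04 in control kidneys. Control replicate 3 lay among the db/db arrays, and control replicate 1 was the highest. The change of -0.22 ± 0.08 (SE) sat just inside the threshold (limma adjusted p = 0.0470). It passed in 2 of the 8 fits that left out 1 array, those without control replicate 3 and without db/db replicate 2, and its adjusted p in the other 6 reached 0.113. miR-17-5p shares its probes with miR-106a-5p, which has no probe of its own on this array, so the 2 cannot be told apart.

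miR-18a-5p is known for repressing connective tissue growth factor, a matrix-linked protein. It read 4.33, 4.40, 4.06 and 4.16 in db/db kidneys, against 4.61, 4.60, 4.43 and 4.50 in control kidneys. In the mean of its 2 probes all db/db arrays were lower than all control arrays, by a narrow margin between db/db replicate 2 and control replicate 3. The shorter probe had 0 of 15 spots well above background on any db/db array, and on the longer one alone the groups overlapped. The change was -0.30 ± 0.08 (SE, limma adjusted p = 0.0228). The adjusted p became 0.0543 without control replicate 1, 0.0545 without control replicate 2 and 0.0622 without db/db replicate 4. In the gene total signal of the scanner software the change was -0.70, and in the authors' value table -0.75. On 3 of 4 db/db arrays that total held the longer probe alone, whereas on all 4 control arrays it held both probes.

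miR-17-3p is the opposite arm of the miR-17 hairpin and has a seed of its own. It read 4.96, 4.84, 4.68 and 4.88 in db/db kidneys, against 5.07, 4.93, 4.98 and 5.01 in control kidneys. Only db/db replicate 1 reached into the control range. The change was -0.16 ± 0.07 (SE, 95% interval -0.31 to -0.0046, limma adjusted p = 0.0886), which did not pass. Without db/db replicate 1 the adjusted p was 0.0492, and without db/db replicate 2 it was 0.0334. The ratio of miR-17-5p to miR-17-3p on the same array averaged -1.03 ± 0.10 in db/db and -0.97 ± 0.11 in control kidneys (log2, SD, n = 4 each), with overlapping groups (exact permutation test, 2-sided, p = 0.371).

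miR-92a-3p, which restrains vessel growth by repressing integrin alpha 5 in endothelial cells, was the member with the smallest change. It read 7.92, 7.93, 7.83 and 7.93 in db/db kidneys, against 7.82, 8.01, 7.89 and 7.97 in control kidneys. The lowest array of all was a control array, and the groups overlapped throughout. The change was -0.02 ± 0.05 (SE, 95% interval -0.14 to 0.10, limma adjusted p = 0.780). It passed in none of the 22 alternative settings. A fall as large as that of miR-19a-3p lay outside its interval.

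**Figure D2:**
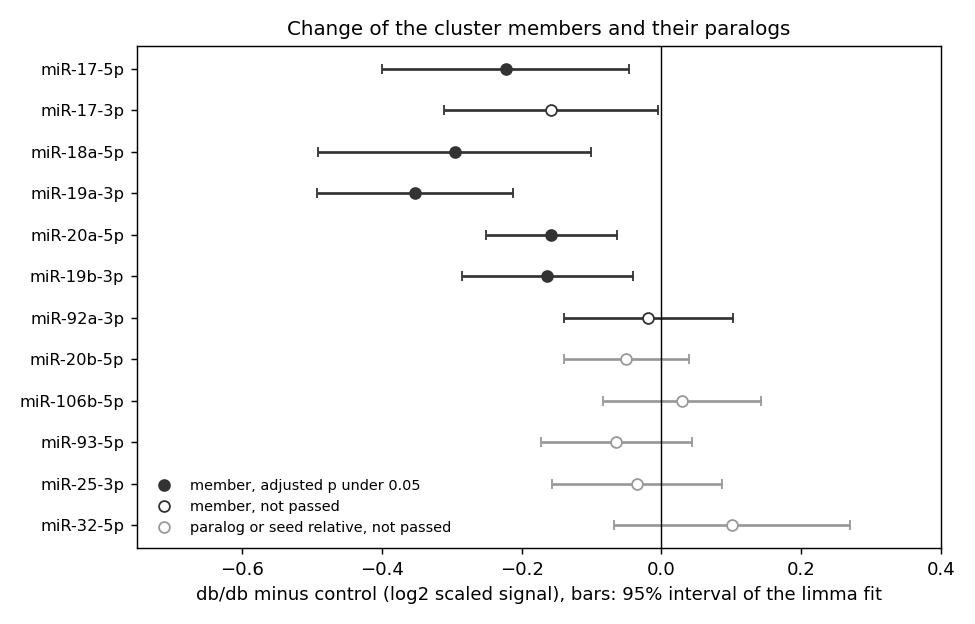
Change of the 7 members (black) and of 5 paralogs or seed relatives (grey), db/db minus control in log2 scaled signal, with 95% intervals of the limma fit. Filled points passed at an adjusted p under 0.05, and all 5 filled points lie between -0.35 and -0.16. With spike-in scaling no member would be filled, miR-20a-5p and miR-19b-3p would lie at 0.024 and 0.018, and miR-106b-5p at 0.21 and miR-32-5p at 0.28 would be filled.

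Values of the cluster were also read array by array, and cell type markers were compared by group only. db/db replicate 3 was the lowest db/db array for 6 of 7 members and replicate 4 for the other one. Centred on its mean, the mean profile of the cluster stood at -0.21 on db/db replicate 3, and at -0.05, -0.04 and -0.09 on db/db replicates 1, 2 and 4. The control arrays stood at 0.10, 0.11, 0.07 and 0.11. Of 7 leukocyte miRNAs, 6 fell and none rose, where 17.4% of all tested miRNAs fell. The 7 had a median change of -1.16 and a summed level of 298 to 410 scaled units in db/db against 661 to 843 in control kidneys. These included miR-142a-3p at -1.16, miR-150-5p at -1.39 and miR-223-3p at -0.83, and their part in the change of the cluster was not tested. In bulk kidney RNA, fewer cells of a type and less RNA per cell cannot be told apart.

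Neither endothelial marker passed, miR-126a-3p at -0.11 and miR-126a-5p at -0.15, with a summed level of 3648 to 3807 in db/db and 3913 to 4194 in control kidneys. Of 5 tubule miRNAs 3 rose, led by miR-204-5p at 1.05, where 24.4% of all tested miRNAs rose. The tubule miRNAs miR-192-5p at 0.08 and miR-194-5p at -0.0072 did not pass. The sum of the 5 was 12209 to 12640 in db/db against 11012 to 11522 in control kidneys. The sum of the erythroid markers ranged from 651 to 3598 in db/db and from 709 to 3092 in control kidneys, and 0 of the 2 tested passed. The smooth muscle and pericyte markers miR-143-3p and miR-145a-5p did not pass either, with sums of 452 to 508 in db/db and 452 to 519 in control kidneys. miR-122-5p, which defines hepatocytes, was detected on all 4 db/db arrays at 50.2 to 133 scaled units and on 0 control arrays. What part these cell types had in the values of the cluster was not tested.

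Ratios between 2 members on the same array do not depend on scaling by 1 factor per array. They ask whether members changed by unequal amounts. Quantile normalization is not such a factor. With it miR-20a-5p changed by -0.11 and miR-92a-3p by -0.12, and the ratios were not computed there. Signals of miR-19b-3p, miR-92a-3p and miR-17-5p cannot be assigned to chromosome 14 alone. Ratios with these members therefore cannot be read as unequal change within 1 transcript. In db/db kidneys every other member except miR-17-3p stood lower relative to miR-92a-3p than in any control kidney, and miR-19a-3p stood lower relative to miR-19b-3p and miR-20a-5p as well. In all, 7 of the 21 ratios did not overlap between the groups, beside 43.3% of the 36046 ratios between any 2 miRNAs detected on all arrays. Each of the 7 had an exact permutation p of 0.0286, the smallest that 70 assignments of 8 arrays allow, and 0.0857 after adjustment over the 21 ratios, so 0 passed at 0.05. The share without overlap in the cluster was thus not above that of all pairs.

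The ratio of miR-19a-3p to miR-92a-3p was -1.39, -1.33, -1.45 and -1.32 in db/db replicates 1 to 4, against -1.02, -1.11, -0.95 and -1.09 in control replicates 1 to 4 (log2). The groups were well apart, with a difference of -0.33. The ratio of miR-19a-3p to miR-19b-3p was -3.02, -2.93, -3.05 and -2.92 in db/db kidneys, against -2.75, -2.78, -2.81 and -2.83 in control kidneys, a difference of -0.19. These 2 miRNAs share a seed and differ at 1 base, and the probes of each have 1 mismatch to the other. Cross-hybridisation between them was not tested. The ratio of miR-19a-3p to miR-20a-5p differed by -0.20 (exact permutation p = 0.0286, n = 4 each).

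The ratio of miR-20a-5p to miR-92a-3p was 0.67, 0.69, 0.66 and 0.66 in db/db kidneys, against 0.88, 0.74, 0.87 and 0.75 in control kidneys, a difference of -0.14. The db/db arrays lay within a narrow band below all control arrays. For miR-19b-3p over miR-92a-3p the means were 1.60 ± 0.02 in db/db and 1.75 ± 0.08 in control kidneys (SD, n = 4 each). miR-18a-5p and miR-17-5p over miR-92a-3p differed by -0.28 and -0.20 without overlap. By contrast, miR-20a-5p over miR-19b-3p was -0.94 ± 0.02 in db/db and -0.94 ± 0.07 in control kidneys (SD, n = 4 each; exact permutation p = 0.971), a difference of 0.01.

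**Figure D3:**
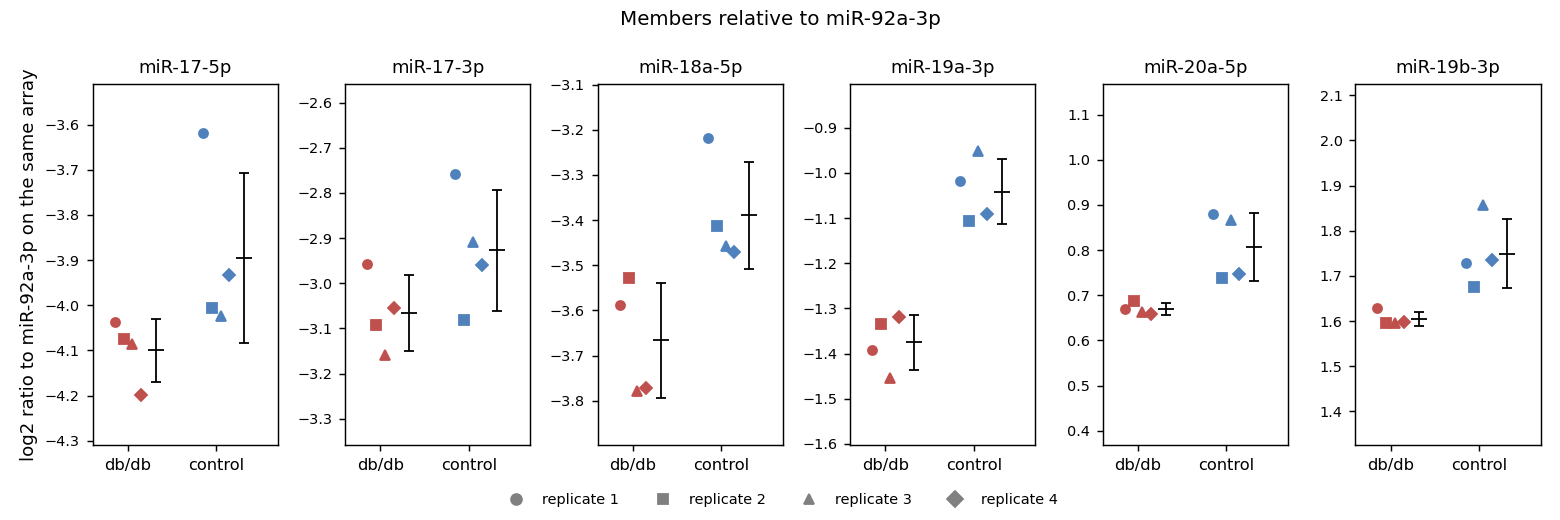
Log2 ratio of each other member to miR-92a-3p on the same array, 1 point per array, in 4 db/db (red, left) and 4 control (blue, right) kidneys, with the replicate number as the marker shape and bars at mean ± SD. The db/db points lie below all control points in every panel but that of miR-17-3p, and the mean for miR-19a-3p is -1.38 in db/db against -1.04 in control kidneys.

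The relatives of the cluster in other hairpins were described next. The sister clusters and seed relatives were represented by 8 miRNAs with probes, 5 of which were detected and tested, and 0 of the 5 passed in either direction. miR-18b-5p, miR-363-3p and miR-92b-3p were detected on no array. Their sequences, with the seed in capitals, show how close the 5 lie to the members.
miR-20b-5p: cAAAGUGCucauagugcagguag
miR-106b-5p: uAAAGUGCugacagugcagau
miR-93-5p: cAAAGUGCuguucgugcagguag
miR-25-3p: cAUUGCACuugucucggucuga
miR-32-5p: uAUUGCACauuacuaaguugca

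miR-20b-5p, encoded by the sister cluster on chromosome X, averaged 7.96 ± 0.03 in db/db and 8.01 ± 0.04 in control kidneys (SD, n = 4 each), a change of -0.05 (limma adjusted p = 0.319). miR-106b-5p, from an intron of Mcm7, averaged 8.53 ± 0.08 in db/db and 8.50 ± 0.03 in control kidneys, a change of 0.03 (limma adjusted p = 0.633). Both carry the seed of miR-17-5p and miR-20a-5p, and in both the groups overlapped. miR-93-5p changed by -0.06, miR-25-3p by -0.03 and miR-32-5p by 0.10, with limma adjusted p-values of 0.289, 0.606 and 0.287. The median over the 5 was -0.03. With spike-in scaling miR-106b-5p passed at 0.21 (limma adjusted p = 0.0175) and miR-32-5p at 0.28 (limma adjusted p = 0.00295), both higher in db/db kidneys. In the lower direction miR-93-5p passed in 4 of the 22 alternative settings and miR-20b-5p in 2, each at -0.15 with quantile normalization, and both passed without db/db replicate 2.

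The difference between a member and its seed relative was taken as a ratio on the same array for 8 pairs, chosen after the values were seen. The ratio of miR-20a-5p to miR-106b-5p averaged 0.05 ± 0.04 in db/db and 0.23 ± 0.04 in control kidneys (log2, SD, n = 4 each), with no overlap. That of miR-20a-5p to miR-20b-5p averaged 0.61 ± 0.03 in db/db and 0.72 ± 0.02 in control kidneys, also with no overlap, although the miRNAs differ only by U1C and U10C. In all, 3 of 8 pairs did not overlap, at an exact permutation p of 0.0286 each and 0.0762 adjusted over the 8, and 0 passed at 0.05. Among ratios between any 2 miRNAs detected on all arrays, 43.3% did not overlap, so the share among these pairs was not above that. miR-92a-3p over miR-25-3p differed by 0.02 (exact permutation p = 0.771). Cross-hybridisation between these relatives was not tested. Laid against the relatives, the probes of miR-20a-5p have 1 mismatch to miR-20b-5p, and those of miR-17-5p have 0 to miR-106a-5p and 1 to miR-20a-5p.

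The other arms of the hairpins were mostly not detected. Of the 7 on the array, including those of the copies on chromosome X, 0 were detected on all arrays of a group, and miR-20a-3p was detected on 1 db/db array and on 0 control arrays. miR-18a-3p, miR-19a-5p, miR-19b-1-5p, miR-92a-1-5p, miR-19b-2-5p and miR-92a-2-5p were detected on none. Among the hairpins of the cluster, that of miR-17 alone thus had both arms called detected on all arrays. The probes of miR-17-5p also match miR-106a-5p, so that signal cannot be credited to the miR-17 hairpin alone. Lack of detection by a probe does not show that an arm was absent.

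Each member was also read from its 2 probes alone, in a fit over the 696 probes of all tested miRNAs that was chosen after the values were seen. The shorter probes of miR-17-5p (12 bases) and miR-18a-5p (18 bases) had 0 of 15 spots well above background on any db/db array and had only a bound there, with no fold. That of miR-17-5p had 0 on any control array either, so it measured neither group, although it enters the mean of the 2 probes behind the change of -0.22. Of the other 12 probes, 5 fell and 0 rose, where 15.8% of the 696 fell and 39.8% passed in either direction. Both probes of miR-19a-3p fell, by 0.36 and 0.34 on the log2 scale (limma adjusted p = 0.00217 and 0.00530), as did both of miR-20a-5p, by 0.17 and 0.15 (limma adjusted p = 0.00548 and 0.00889). The probes of miR-19b-3p differed in the call, at -0.18 for the shorter (limma adjusted p = 0.00904) and -0.15 for the longer one (limma adjusted p = 0.0637). The longer probes of miR-17-5p and miR-18a-5p did not pass alone, at -0.20 and -0.24 (limma adjusted p = 0.0578 and 0.0608). The shorter probe of miR-17-3p had spots well above background on 2 db/db and 3 control arrays and stood at -0.21, and the longer one at -0.14, without passing. Neither probe of miR-92a-3p passed, at -0.07 and -0.00039.

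**Figure D4:**
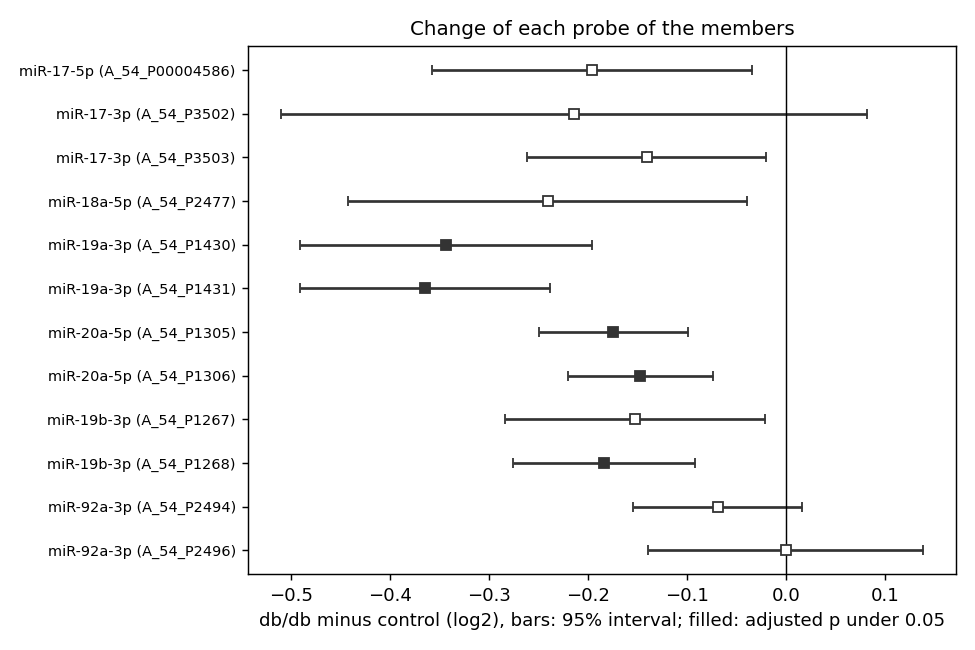
Change of each of the 12 probes of the members with spots well above background in both groups, db/db minus control in log2 scaled signal, with 95% intervals of the limma fit over 696 probes. Filled squares passed at an adjusted p under 0.05. They are both probes of miR-19a-3p, both of miR-20a-5p and the shorter one of miR-19b-3p.

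The miRNAs whose profile over the 8 arrays lay closest to the mean profile of the cluster were found by the root mean square difference of centred log2 values, over 257 others detected on all arrays. They were miR-126a-5p at 0.0404, miR-16-5p at 0.0448, miR-22-5p at 0.0465, miR-185-5p at 0.0486 and miR-125b-5p at 0.0513, against a median of 0.156. Among the members, miR-20a-5p lay nearest to the cluster mean at 0.0337, and miR-92a-3p farthest at 0.102. The next nearest member was miR-17-3p at 0.0577. Every member but miR-20a-5p thus lay farther from that mean than these 5 miRNAs, which were picked for their closeness. Of the 5, miR-16-5p changed by -0.19 (limma adjusted p = 0.0236) and miR-125b-5p by -0.17 (limma adjusted p = 0.0359). miR-126a-5p, an endothelial miRNA, stood at -0.15 without passing (limma adjusted p = 0.0567).

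Across the 22 alternative settings, miR-19a-3p and miR-20a-5p passed in 19 each, miR-18a-5p in 16, miR-19b-3p in 12 and miR-17-5p in 9. miR-19a-3p and miR-20a-5p passed in all 8 fits without 1 array, with adjusted p from 0.00268 to 0.00785 and from 0.00425 to 0.0389. miR-17-3p passed in 4 of the 22. Of the 7 members, 2 passed without control replicate 2 or without db/db replicate 4, and 3 without control replicate 1, control replicate 4 or db/db replicate 3. Scaling moved the median change of all tested miRNAs to 0.10 with no scaling and to 0.16 with spike-in scaling, against -0.02 as reported. Such scaling shifts all miRNAs of an array alike, so the distance of the members' median from that of all tested miRNAs stays at -0.14 by construction. That distance was -0.07 with normexp background correction and -0.18 with quantile normalization. With normexp the changes themselves were -0.14 for miR-18a-5p, -0.12 for miR-17-5p and -0.23 for miR-19a-3p, and these 3 passed. That correction added an offset of 50 signal units, which by itself makes log2 changes of weak signals smaller.

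**Figure D5:**
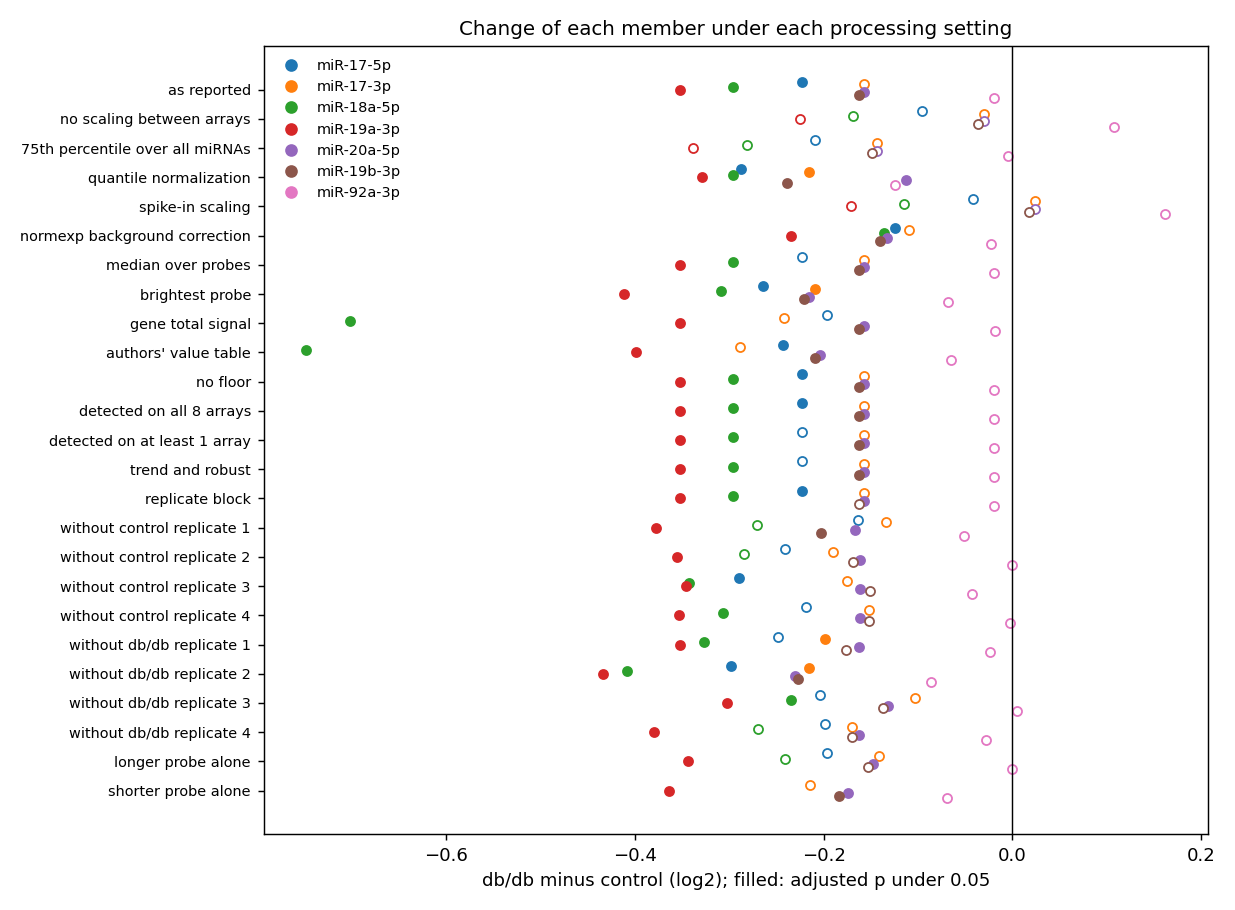
Change of each member, db/db minus control (log2), under the reported setting (top) and each alternative, with the probes alone at the bottom. Filled points passed at an adjusted p under 0.05. miR-19a-3p lies below 0 in every row, whereas with spike-in scaling miR-17-3p, miR-20a-5p and miR-19b-3p lie at 0.018 to 0.024 and miR-92a-3p at 0.16.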

How the data were processed

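Spot intensity values in the deposited files came from Agilent Feature Extraction 12.0.3.1. Spatial detrending was on and background correction off, per the file headers. From 100 ng of kidney RNA per array, labelled with Cy3, 56430 spots measured 4415 probes of 1881 miRNAs, and 0 were saturated. The other flags in the deposited files, which mark outlier spots and detection, were used as the authors' software wrote them. The authors' value table gives a linear ratio per miRNA and array, with a scaling factor per array that the sources used here do not give. It served as an alternative.

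Non-outlier spots (2.935% were outliers) were averaged per probe and then per miRNA. Arrays were scaled on the 75th percentile, and scaled signals under 2.80 were set to 2.80 before log2. A miRNA was tested when 1 or both groups detected it on each of their 4 arrays, which held for 316. The test was limma 3.58.1 (lmFit, eBayes) in R 4.3.3 with Benjamini-Hochberg adjustment, 2-sided, at 0.05. Ratios were tested by exact permutation. The steps were tested on simulated data. Alternatives covered scaling, background, probe summary, floor, filter, value table, variance model, replicate block and each array left out. The number of arrays limits the precision. The members and lists were chosen with earlier results of these data known. The miRNAs named were the members, the other arms of their hairpins, the paralogs and seed relatives, the 5 nearest profiles and up to 3 markers of each cell type list. Sequences came from the RefSeq table (GRCm38.p6) and the array design (mm9), read with Python 3.11.15 and pandas 2.3.3.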

Additional observations from a re-analysis of the deposited data

Results flagged for a closer look

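In the db/db group, miR-92a-3p on replicate 3, at 7.83 log2 scaled signal, stood apart from the other 3 arrays, the nearest of which was at 7.92. The gap was 0.868 of the range of the group, above Dixon's 95% critical value for 4 samples. miR-32-5p, which shares the seed of miR-92a-3p, was likewise lowest on db/db replicate 3, at 4.73 with the nearest array at 4.96, a gap of 0.915 of the range. Chance alone marks about 1 in 20 groups in this way, and 34 groups were checked.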

How the results depend on the processing

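With no scaling between arrays, with the percentile set on all miRNAs and with spike-in scaling, 0 members passed, against 5 as reported. Over all tested miRNAs, 34 passed with the percentile over all miRNAs, against 132. That setting left miR-19a-3p at -0.34, with an SE of 0.25 against 0.06 as reported. All members had that same SE there, as had miR-16-5p, which is not a member, so it was not particular to the members. Leaving out 1 array at a time gave 2 to 6 members lower. Normexp background correction, with an offset of 50 signal units, moved miR-18a-5p to -0.14, miR-17-5p to -0.12 and miR-19a-3p to -0.23, all still passing. An added offset by itself makes log2 changes of weak signals smaller, and its part was not tested. Of the ratios between members, 4 had no overlap after normexp background correction, against 7. Among called miRNAs, 58.3% were higher as reported, and the share was 78.1% with no scaling, 67.6% with the percentile over all miRNAs, 46.9% with quantile normalization and 83.2% with spike-in scaling. The direction turned in these cases. With no scaling it did so for miR-92a-3p (0.11), miR-20b-5p (0.077), miR-93-5p (0.063) and miR-25-3p (0.092). With spike-in scaling it did so for miR-17-3p (0.023), miR-20a-5p (0.024), miR-19b-3p (0.018), miR-92a-3p (0.16), miR-20b-5p (0.13), miR-93-5p (0.12), miR-25-3p (0.15), miR-126a-5p (0.032), miR-22-5p (0.0082), miR-185-5p (0.040) and miR-125b-5p (0.014). miR-106b-5p turned to -0.017 with quantile normalization and with the value table and to -0.037 with the brightest probe, and with 1 array left out it ran from -0.048 to 0.067, being below 0 without db/db replicate 2. miR-32-5p turned to -0.038 with normexp and to -0.028 with the brightest probe. With 1 array left out, miR-92a-3p ran from -0.086 to 0.0044 and miR-25-3p from -0.10 to 0.011, both above 0 without db/db replicate 3. The cause of these turns was not tested, and for called members they occurred with spike-in scaling alone. No label states if the replicate numbers pair the samples. Deviations of same-numbered samples correlated at -0.43, 0.41, -0.05 and -0.07, and 1 of 4 numbers matched best with itself. So few samples cannot settle if a pairing existed. With the replicate number as a block 4 members passed, miR-19b-3p being lost (limma adjusted p = 0.0776), and 144 miRNAs passed in all. Signals of miR-17-5p, miR-17-3p and miR-18a-5p lay close to background, which limits what their probes can show.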
